A study of Mus musculus with 6 samples.

Results

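The circadian output genes described here are Dbp, Tef, Hlf, Nfil3, Rora, Bhlhe40, Bhlhe41, Ciart and Usp2, 9 of the 18453 genes with an FPKM above 0 in at least 1 liver. They were chosen by name and matched by gene symbol in the FPKM table and in the transcript files. The label of the set is circadian output transcription factors, but Usp2 encodes a ubiquitin-specific protease and Ciart a corepressor without a known DNA-binding domain, so 7 of the 9 encode DNA-binding transcription factors. RNA-seq was performed on livers of 6 Mettl14f/f males (C57BL/6J background), all on HFD from 8 weeks of age. After 10 weeks of HFD, 3 mice received AAV8-TBG-Cre and 3 the control vector AAV8-TBG-GFP, and livers were taken 8 weeks later (Cre livers 1 to 3 and GFP livers 1 to 3, numbered as in the labels). All 6 mice carried the floxed alleles, HFD and an AAV8 vector, and TBG is a hepatocyte promoter, so other liver cells keep intact Mettl14 by design. The library names have a short and a long form whose meaning is not given in the sources used here. GFP livers 1 and 2 and Cre liver 1 have the short form, and GFP liver 3 and Cre livers 2 and 3 the long form. The time of day at which the livers were taken is not given in the sources used here either.

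In the molecular clock, CLOCK and BMAL1 (encoded by Clock and Arntl) drive transcription from E-boxes, and PER and CRY proteins repress them. Output transcription factors carry this rhythm to metabolic genes. Dbp, Tef and Hlf encode the PAR bZIP activators, which bind D-boxes and are known in liver for driving genes of xenobiotic and bile acid metabolism. Nfil3 (E4bp4) encodes a bZIP repressor that binds the same D-boxes. RORα, encoded by Rora, activates genes through ROR elements, where the REV-ERB receptors repress. Bhlhe40 and Bhlhe41 encode DEC1 and DEC2, repressors that bind E-boxes. Ciart encodes CHRONO, a corepressor of CLOCK and BMAL1, and Usp2 a deubiquitinase whose mRNA cycles in liver.

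The promoter stretches below are shown because they hold elements through which clock factors are known to act. Promoter windows of 300 bases, from 250 before to 50 after the transcription start, were taken from RefSeq on GRCm38.p6, the assembly that mm10 in the labels stands for. Windows matched 8 of the 9 members (all but Bhlhe40), with 9 windows because Tef has 2. Searched on both strands were the E-box CACGTG, the D-box TTANGTAA and the ROR element TAGGTCA, none of which overlap in these windows. Capitals mark the motif, and the strands are written 5′ to 3′ in the direction of the gene. The stretches lie at chr3:95882245-95882366 (minus strand) for Ciart, chr15:81802524-81802573 and chr15:81811254-81811303 (plus strand) for the upstream and downstream Tef windows, chr6:145865546-145865595 (minus strand) for Bhlhe41 and chr13:52981023-52981073 (minus strand) for Nfil3.
Ciart: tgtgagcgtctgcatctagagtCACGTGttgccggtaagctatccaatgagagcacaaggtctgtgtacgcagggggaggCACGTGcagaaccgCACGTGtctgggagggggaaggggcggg
Tef, upstream window: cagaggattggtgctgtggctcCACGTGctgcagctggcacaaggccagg
Tef, downstream window: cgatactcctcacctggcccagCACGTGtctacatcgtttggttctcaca
Bhlhe41: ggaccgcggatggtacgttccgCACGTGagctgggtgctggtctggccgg
Nfil3: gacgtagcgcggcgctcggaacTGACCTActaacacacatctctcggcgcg

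Ciart had 3 E-boxes, beginning 116, 58 and 44 bases before the start. The Tef windows had an E-box 127 and 138 bases before their starts, and Bhlhe41 had an E-box 153 bases before its start. The ROR element in Nfil3 lies 12 bases before the start on the opposite strand, so it reads TGACCTA here. E-boxes occurred in 7.15% of all 32851 promoter windows, ROR elements in 2.61% and D-boxes in 2.32%. The windows of Dbp, Hlf, Rora and Usp2 held none of the 3 motifs, and no member window held the D-box letters, which says nothing of sequence outside these windows.

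Each library held between 20356440 and 21010508 counts, of which the 9 members took between 12406 and 17513. Mettl14, the targeted gene, had 6.30, 6.43 and 5.81 CPM (counts scaled to library size with TMM normalization) in the GFP livers and 4.96, 5.38 and 4.86 CPM in the Cre livers, a log2 difference of -0.29 (SE 0.15, adjusted p = 0.337, edgeR). Mettl14 thus did not pass the test, and the libraries are called by their labels. Cre liver 2 stood apart, with a TMM scaling factor of 1.18 against 0.913 to 1.02 in the other libraries. The 8 hepatocyte markers summed to between 75575 and 111874 CPM, so the tissue carried its defining markers. In the contrast of the vectors, 0 of these 8 passed the adjusted p-value, 1 was higher and 1 lower by the unadjusted rule given below (median log2 difference -0.18). Cholangiocyte markers summed to between 72.2 and 128 CPM in the GFP livers and between 306 and 574 CPM in the Cre livers, and all 8 were higher by the unadjusted rule (3 by the adjusted p-value). Macrophage and Kupffer cell markers summed to 214 to 249 CPM against 332 to 524 CPM (6 of 9 higher by the unadjusted rule), and stellate cell and fibroblast markers to 199 to 294 CPM against 388 to 843 CPM (4 of 7 higher). Endothelial markers summed to 137 to 213 CPM against 139 to 166 CPM (1 of 7 lower). T and NK cell markers summed to at most 4.44 CPM, B cell markers to at most 1.86 CPM and neutrophil markers to at most 14.3 CPM, with 3 of 7, 1 of 4 and 4 of 5 listed genes high enough to be tested. Cre liver 2 had the highest cholangiocyte, macrophage and stellate cell sums. In bulk liver, fewer cells of a type and less RNA per cell cannot be told apart.

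Per length and depth, Dbp was the highest of the 9 genes, with a mean of 74.8 FPKM over the 6 livers (range 52.5 to 102), followed by Bhlhe40 with 54.7 FPKM (41.7 to 65.5) and Tef with 45.3 FPKM (32.6 to 57.4). Usp2 (18.9 FPKM, 11.97 to 25.9), Hlf (17.0 FPKM, 13.7 to 19.7) and Ciart (15.8 FPKM, 10.7 to 24.5) formed the middle. Nfil3 had 8.47 FPKM (4.10 to 13.0), Rora 5.60 FPKM (5.01 to 6.54) and Bhlhe41 0.688 FPKM (0.380 to 1.52). In this order the ranges of neighbours overlapped except between Tef and Usp2 and between Rora and Bhlhe41. The PAR bZIP activators were thus spread from the top to the middle of the order, and the DEC repressors lay near its top and at its bottom.

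The first comparison asked whether the output genes differed between the Cre and the GFP livers. With a Benjamini-Hochberg adjusted p-value under 0.05 in edgeR's quasi-likelihood test, 0 of the 9 genes differed, against 0.931% of the 13431 genes tested. DESeq2 also called 0 by its adjusted p-value. At the unadjusted rule, a fold of at least 1.2 with an unadjusted p under 0.05, 2 of the 9 differed, Hlf and Nfil3, both lower in the Cre livers. This rule called 20.5% of all genes tested in either direction and 8.41% as lower, and 2 of 9 lies near the first of these shares. DESeq2 called Hlf, Nfil3 and Bhlhe41 at the unadjusted rule, and limma on log2(FPKM + 1) called Hlf, Dbp and Ciart. All 9 members passed the filter on low counts. Their median log2 difference was 0.03, beside -0.01 over all genes tested, with 5 above 0 and 4 below 0.

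Dbp (chr7:45705100-45710203) is the PAR bZIP factor with the strongest known rhythm in liver. It had 113, 116 and 96.4 CPM in GFP livers 1, 2 and 3 and 163, 92.0 and 172 CPM in Cre livers 1, 2 and 3. Cre livers 1 and 3 lay above all GFP livers and Cre liver 2 below them. The log2 difference was 0.39 (SE 0.23, adjusted p = 0.380, edgeR). Without Cre liver 2 it was 0.62, with an unadjusted p = 0.00208 and an adjusted p = 0.107 in edgeR. It fell to 0.28 without Cre liver 1 and to 0.23 without Cre liver 3 (unadjusted p = 0.295 and 0.378, edgeR). On the FPKM scale Cre liver 2 (64.7 FPKM) lay between the controls (52.5 to 65.6 FPKM), and limma on log2(FPKM + 1) gave 0.51 (unadjusted p = 0.0322, adjusted p = 0.218). The 3′ end of Dbp overlaps Sphk2 by 741 bases, Sphk2 had 17.1 to 26.2 FPKM, and the expected counts of Dbp were not whole in any library. Strand use in the counting is not stated, so reads of this stretch cannot be told apart.

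Tef (chr15:81802673-81826863), a second PAR bZIP activator, had 220, 217 and 153 CPM in the GFP livers and 239, 141 and 192 CPM in the Cre livers. The groups overlapped fully, with a log2 difference of -0.05 (SE 0.22, adjusted p = 0.930, edgeR). With the form of the library name in the fit the sign turned (0.12).

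Hlf (chr11:90336535-90390917), the third PAR bZIP activator, had 111, 106 and 124 CPM in the GFP livers and 94.5, 66.5 and 89.2 CPM in the Cre livers. Every Cre liver lay below every GFP liver, with means of 83.4 ± 14.9 and 114 ± 9.08 CPM (SD, n = 3 each). The difference was 1.36-fold, a log2 difference of -0.45 (SE 0.15, unadjusted p = 0.0197, adjusted p = 0.160, edgeR). In an exact two-sided permutation test p was 0.1, the smallest that 3 livers against 3 allow. Within the form of the library name the log2 difference was -0.20 for the short form and -0.67 for the long form. The lowest liver was Cre liver 2, and without it the log2 difference was -0.31 (unadjusted p = 0.0343, edgeR). Without GFP liver 3, the highest liver, the unadjusted p was 0.0551 (edgeR) and the call was lost.

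Nfil3 (chr13:52967209-52982878), the D-box repressor, had 24.3, 27.6 and 14.5 CPM in the GFP livers and 14.3, 14.4 and 8.38 CPM in the Cre livers. The groups did not overlap in CPM, but GFP liver 3 exceeded the highest Cre liver by little, and on the FPKM scale it lay below Cre livers 1 and 2 (6.54 against 7.22 and 8.37 FPKM), so that the groups overlapped. Means were 22.2 ± 6.84 and 12.4 ± 3.45 CPM (SD, n = 3 each), a 1.79-fold difference and a log2 difference of -0.84 (SE 0.28, unadjusted p = 0.0193, adjusted p = 0.158, edgeR; exact permutation p = 0.1). By form of the library name the log2 difference was -0.86 for the short and -0.35 for the long form. In edgeR the adjusted p was 0.349 without GFP liver 1, 0.370 without GFP liver 2 and 0.285 without Cre liver 3, and in these 3 fits and in limma on FPKM the unadjusted call was lost. Hlf and Nfil3 were the only 2 members whose vector groups did not overlap in CPM, and 27.0% of all genes tested had groups that did not overlap. The cholangiocyte, macrophage and stellate cell marker sums given above moved with the vector in the opposite direction, and their part in the lower levels of Hlf and Nfil3 was not tested.

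Rora (chr9:68653404-69388246) had 58.1, 56.2 and 56.2 CPM in the GFP livers and 69.9, 54.8 and 60.2 CPM in the Cre livers. In CPM the GFP livers were almost level and the Cre livers spread around and above them, with a log2 difference of 0.12 (SE 0.11, adjusted p = 0.609, edgeR). On the FPKM scale every Cre liver (5.53 to 6.54 FPKM) lay above every GFP liver (5.01 to 5.34 FPKM). There limma on log2(FPKM + 1) gave 0.18 (unadjusted p = 0.115, adjusted p = 0.357). The share of all genes whose groups did not overlap in FPKM was not computed. Its relative Rorb had 1 count in all 6 libraries together.

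Bhlhe40 (chr6:108660629-108666925), encoding DEC1, had 183, 181 and 143 CPM in the GFP livers and 141, 170 and 208 CPM in the Cre livers. The group means of 169 ± 22.3 and 173 ± 33.6 CPM (SD, n = 3 each) differed by less than the spread within either group (log2 difference 0.03, SE 0.17, adjusted p = 0.936, edgeR). Bhlhe41 (chr6:145858243-145865420), encoding DEC2, had 2.39, 3.37 and 2.83 CPM in the GFP livers and 2.67, 4.35 and 9.39 CPM in the Cre livers. These CPM stood on 47 to 195 counts per library. Cre liver 3 held the high value, and the log2 difference of 0.93 (SE 0.44, adjusted p = 0.277, edgeR) was 0.30 without this liver.

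Ciart (chr3:95878500-95882257), the CHRONO gene, had 19.7, 17.4 and 16.3 CPM in the GFP livers and 33.3, 15.5 and 29.0 CPM in the Cre livers. As with Dbp, Cre livers 1 and 3 were above every control and Cre liver 2 below every control. The log2 difference was 0.54 (SE 0.26, unadjusted p = 0.0732, adjusted p = 0.287, edgeR), and 0.80 without Cre liver 2 (unadjusted p = 0.000623, adjusted p = 0.0779). It fell to 0.32 without Cre liver 1 and to 0.45 without Cre liver 3 (unadjusted p = 0.243 and 0.185, edgeR). With the form of the library name in the fit, Ciart passed the unadjusted rule (0.65, unadjusted p = 0.0267, adjusted p = 0.187). In FPKM, Cre liver 2 (13.2) lay within the controls (10.7 to 13.7), and limma on log2(FPKM + 1) gave 0.60 (unadjusted p = 0.0267, adjusted p = 0.208). Usp2 (chr9:44067021-44095627) had 88.2, 65.0 and 43.1 CPM in the GFP livers and 78.7, 44.4 and 55.4 CPM in the Cre livers. The groups overlapped, with a log2 difference of -0.14 (SE 0.29, adjusted p = 0.823, edgeR) that turned to 0.12 with the form of the name in the fit.

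**Figure D1:**
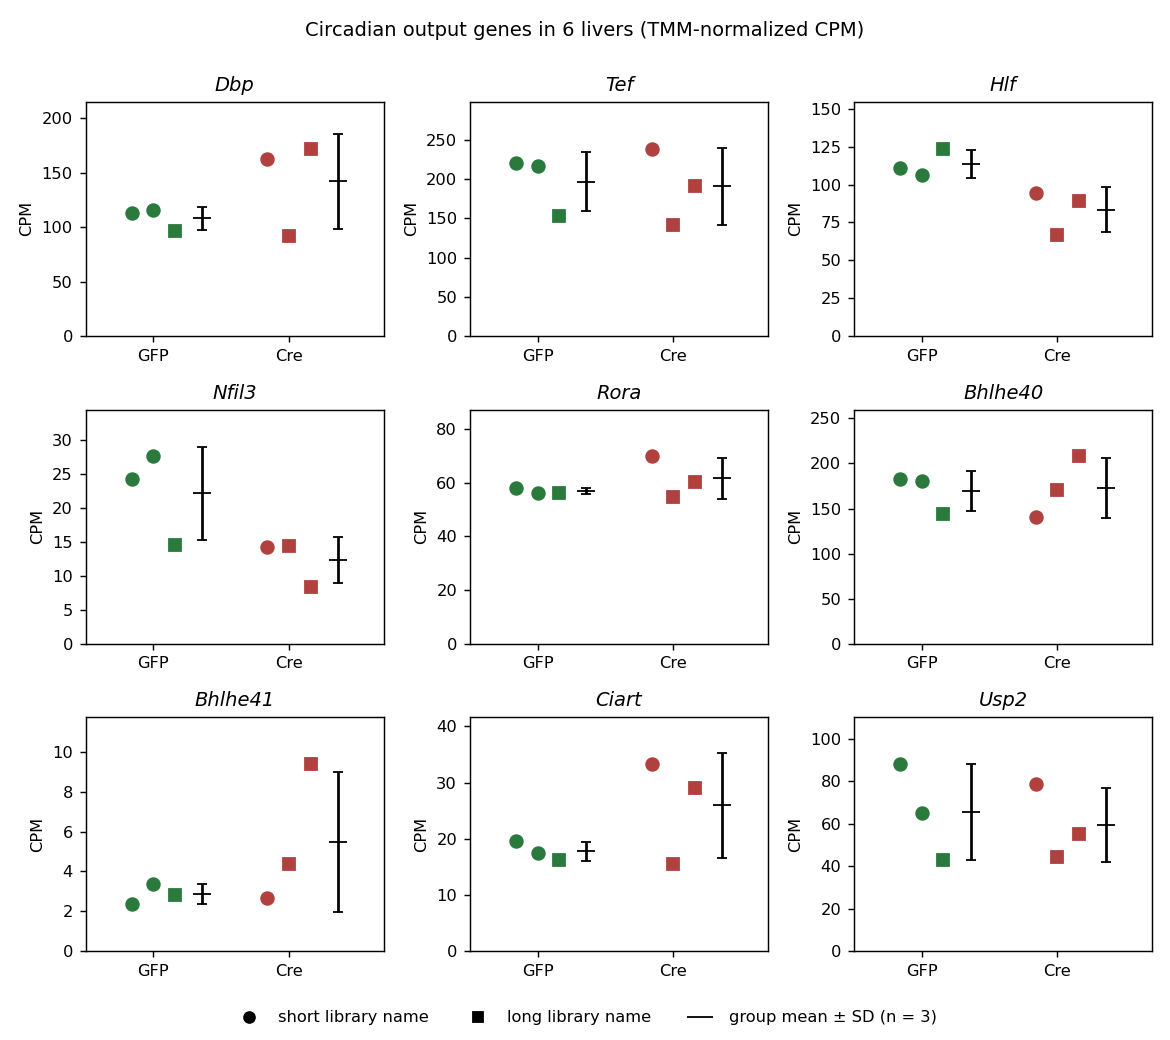
Level of each of the 9 genes in each liver in TMM-normalized CPM (vertical axes, starting at 0), with GFP livers at left in green and Cre livers at right in red, circles for short and squares for long library names, and bars for the mean ± SD (n = 3). Hlf and Nfil3 are the only panels in which all Cre points lie below all GFP points, and in Dbp and Ciart 1 Cre liver (replicate 2) lies apart from the other two.

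The second comparison set the 3 livers with long library names against the 3 with short names, with the vector in the fit. Of the 9 genes, 7 had a negative difference (lower in the long-named livers), with a median log2 difference of -0.27 beside 0.01 over all genes tested. By the adjusted p-value 0 of 9 differed in edgeR, against 1.39% of all genes tested, while DESeq2 called Tef (adjusted p = 0.0210) and Usp2 (adjusted p = 0.00222). By the unadjusted rule 3 of 9 differed, Usp2, Tef and Nfil3, all lower in the long-named livers. This rule called 15.9% of all genes in either direction and 7.79% as lower.

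Usp2 showed the smallest p-value of the 9 genes in this comparison. The short-named livers had 88.2, 65.0 and 78.7 CPM and the long-named livers 43.1, 44.4 and 55.4 CPM, so the forms did not overlap. Means were 77.3 ± 11.7 and 47.7 ± 6.77 CPM (SD, n = 3 each), and the log2 difference was -0.74 (SE 0.16, unadjusted p = 0.00182, adjusted p = 0.0731, edgeR). It was -0.83 among GFP livers and -0.66 among Cre livers. Without the filter on low counts the adjusted p was 0.0493 (edgeR).

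Tef had 220, 217 and 239 CPM in the short-named livers and 153, 141 and 192 CPM in the long-named livers, which did not overlap. The log2 difference was -0.52 (SE 0.14, unadjusted p = 0.00802, adjusted p = 0.137, edgeR). Among GFP livers it was -0.51 and among Cre livers -0.52. Nfil3 had a log2 difference of -0.59 (SE 0.23, unadjusted p = 0.0355, adjusted p = 0.258, edgeR), with values of the forms overlapping among Cre livers. Without GFP liver 3 the Nfil3 difference was -0.32 (unadjusted p = 0.329, edgeR). The unadjusted call was also lost without GFP liver 1 (-0.60), GFP liver 2 (-0.51) or Cre liver 3 (-0.47). Upper quartile normalization (unadjusted p = 0.0524, edgeR) and the limma fits on FPKM (unadjusted p = 0.0760 to 0.110) lost it as well.

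For Tef, Ciart and Usp2, 3 of the 9 genes, long-named livers lay below short-named livers within both vectors, as they did for 18.3% of all genes tested. Ciart had a log2 difference of -0.40 (SE 0.23, adjusted p = 0.455, edgeR) and Dbp one of -0.27 (SE 0.22, adjusted p = 0.602). Rora differed by -0.15 (SE 0.10, adjusted p = 0.501), Hlf by -0.05 (SE 0.16, adjusted p = 0.918) and Bhlhe40 by 0.04 (SE 0.19, adjusted p = 0.944). Bhlhe41 was the member with a positive difference beyond its standard error, 0.69 (SE 0.46, adjusted p = 0.506, edgeR). This difference was -0.04 without Cre liver 1 and 0.30 without Cre liver 3.

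**Figure D2:**
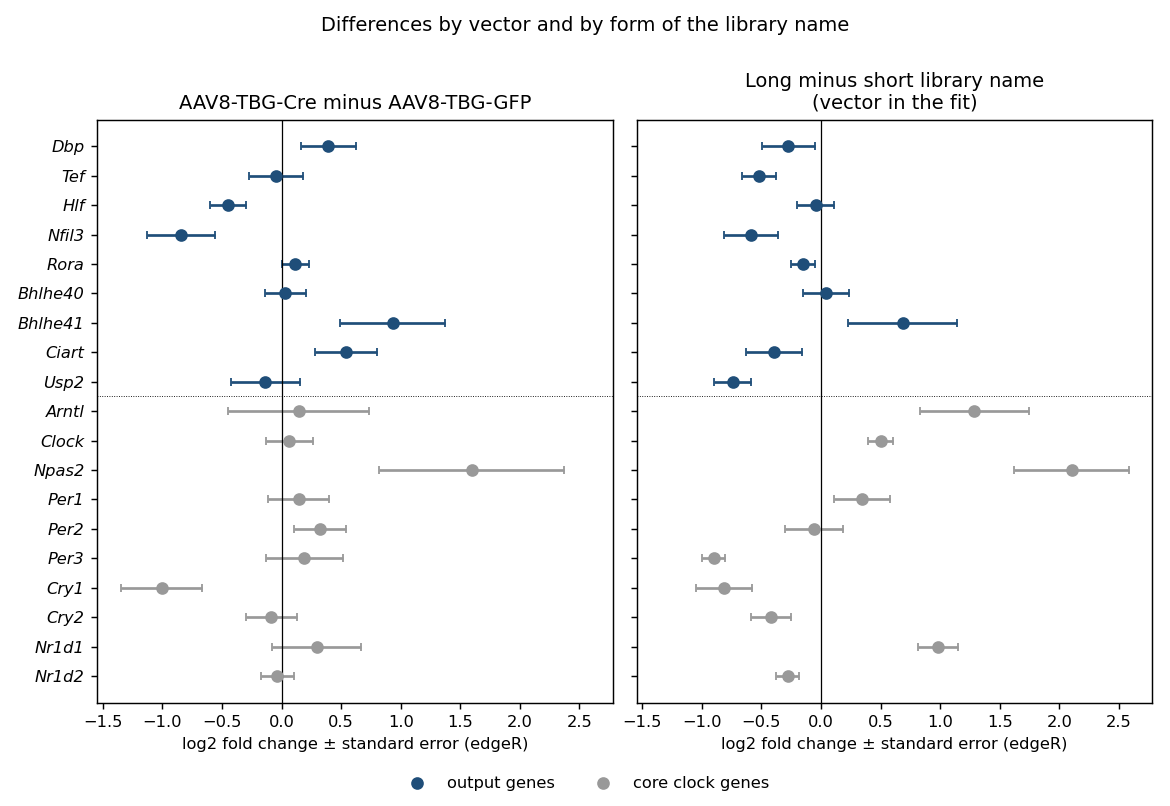
Fitted log2 differences with standard errors from edgeR (horizontal axes, the same in both panels) for the 9 output genes (blue) and 10 core clock genes (grey), by vector at left and by form of the library name at right with the vector in the fit. Hlf (-0.45) and Nfil3 (-0.84) lie farthest below 0 among output genes at left, Usp2 (-0.74), Nfil3 (-0.59) and Tef (-0.52) at right, where Npas2 (2.10) and Arntl (1.29) lie farthest above. Npas2 stood on few counts (4 to 68 per library).

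The core clock genes that drive or repress the output genes were set beside them. By vector, 0 of the 10 core clock genes passed the adjusted p-value in edgeR, and 1 passed the unadjusted rule, the repressor Cry1 (-1.01, unadjusted p = 0.0198). By form of the library name, Nr1d1, encoding REV-ERBα, was higher in the long-named livers (0.98, adjusted p = 0.0470, edgeR) and the repressor Per3 lower (-0.90, adjusted p = 0.0184, edgeR). At the unadjusted rule 4 were higher (Arntl, Clock, Npas2 and Nr1d1) and 4 lower (Per3, Cry1, Cry2 and Nr1d2). Of these, Npas2 stood on only 4 to 68 counts per library and Arntl on 23 to 143. Over all 13431 genes tested, the unadjusted rule called 1089 as higher and 1046 as lower by form of the name. In 4 core clock genes the long-named livers lay below the short-named livers within both vectors, as in 18.3% of all genes tested. In 5 they lay above, and the share of all genes that lay above was not computed. Heat and cold responsive genes also moved with the form of the name, with 6 of 8 higher by the unadjusted rule and Rbm3 by the adjusted p-value (0.87, adjusted p = 0.0425, edgeR). The 1 gene of this list with a negative difference (-0.26) is, like Rbm3, a cold responsive one. Endothelial markers were lower in the long-named livers (5 of 7 by the unadjusted rule), with sums of 137 to 150 CPM against 166 to 213 CPM. The part of these in the differences of Usp2, Tef and Nfil3 was not tested. The adjusted call of Nr1d1 was lost whichever liver was left out (adjusted p between 0.0542 and 0.237, edgeR). That of Per3 was lost without GFP liver 2, GFP liver 3 or Cre liver 1 (0.0680, 0.0727 and 0.164, edgeR) and kept without each of the other livers.

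**Figure D3:**
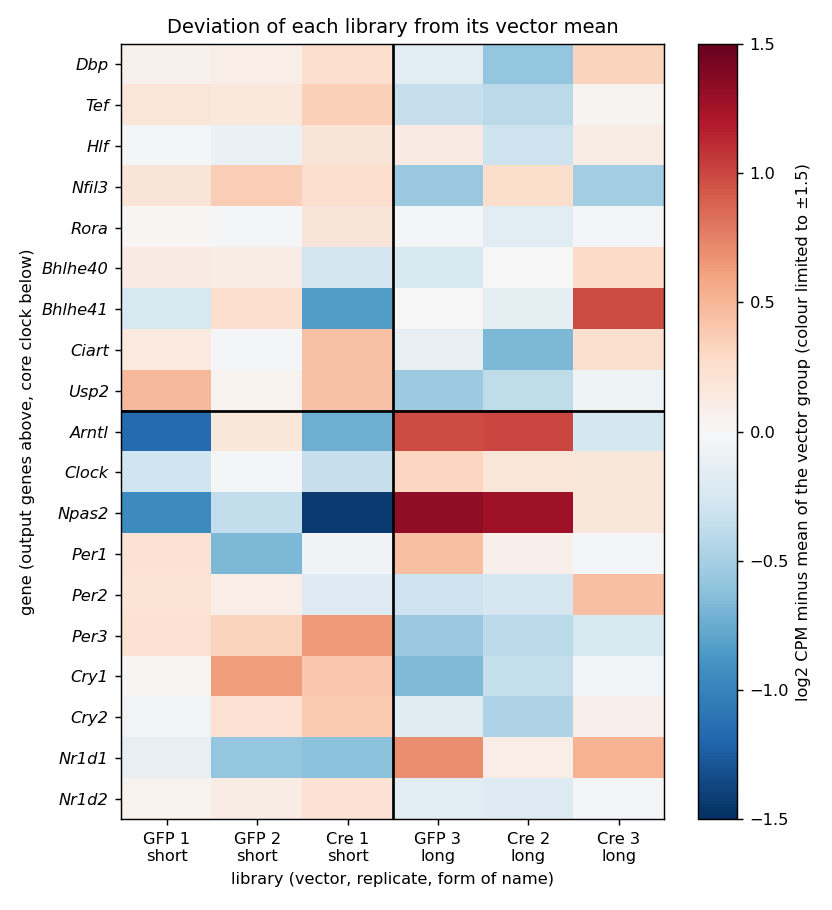
Log2 CPM of each library minus the mean of its vector group (colour, red above and blue below the mean, limited to ±1.5) for the 9 output genes above the line and 10 core clock genes below it, with short-named libraries at left and long-named at right. Tef and Usp2 are above their vector mean in all 3 short-named livers and Per3 is below it in all 3 long-named livers, while Bhlhe40 has both signs on each side.

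The known targets of these factors were taken from lists of textbook genes. Of 9 D-box targets of PAR bZIP factors, Nr1i3, which encodes the xenobiotic receptor CAR, was lower in the Cre livers by the adjusted p-value, and 7 of 9 had a negative difference (median log2 difference -0.37). Nr1i3 had 181, 165 and 194 CPM in the GFP livers and 84.7, 117 and 88.0 CPM in the Cre livers (log2 difference -0.90, adjusted p = 0.0491, edgeR), so its groups did not overlap. This call held without Cre liver 1 (adjusted p = 0.0363, edgeR) and was lost without any other single liver (0.0559 to 0.167). It was also lost with RLE (0.0540) or upper quartile normalization (0.0673), with at least 10 counts in every library (0.0639), in the 3 limma fits (0.116 to 0.198) and with the replicate block (0.115). The call held with DESeq2 (adjusted p = 2.17e-05). In edgeR it held with the name form as a covariate (0.0288) and without the filter on low counts (0.0251). By the unadjusted rule Cyp2c37 was also lower (-0.85) and Cyp2a4 (1.86) and Cyp7a1, the rate-limiting enzyme of bile acid synthesis (0.37), were higher. Cyp2a4 and its near-identical relative Cyp2a5 can share reads, so these values are uncertain. By form of the name, Por, the electron donor of cytochromes P450, was lower in the long-named livers (-0.82, adjusted p = 0.0456, edgeR, and 0.0473 to 0.234 with a liver left out), and Cyp2b10 by the unadjusted rule (-2.61). Cyp2b10 stood on few counts, 6, 13 and 10 in the long-named and 81, 101 and 34 in the short-named livers.

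Of 10 genes that ROR and REV-ERB receptors control in liver, 9 had a negative difference by vector (median -0.37). Elovl3, a fatty acid elongase, was lower in the Cre livers by the adjusted p-value (-2.22, adjusted p = 0.0149, edgeR), from 50.8, 68.5 and 70.8 CPM to 11.7, 11.8 and 17.3 CPM. Its adjusted p was 0.0836 without GFP liver 2 and 0.0559 without Cre liver 2 (edgeR), with a difference of -1.93 to -2.43 over all alternatives. G6pc, the glucose-6-phosphatase, was lower by the unadjusted rule (-1.65, adjusted p = 0.219, edgeR). It had 320, 340 and 171 CPM in the GFP livers and 190, 48.2 and 27.1 CPM in the Cre livers, so the groups overlapped. Its difference by form of the name was -1.64 (adjusted p = 0.0695, edgeR), with long-named below short-named livers within both vectors. By form of the name, Insig2 (0.80, adjusted p = 0.0353) and Avpr1a (0.82, adjusted p = 0.0452) were higher in the long-named livers, both from edgeR. Both calls were lost whichever liver was left out, with adjusted p-values of 0.0558 to 0.244 for Insig2 and 0.0671 to 0.280 for Avpr1a (edgeR). The median over this list was 0.39 by form of the name.

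Genes that respond to hormones or feeding, which also act on output genes, were counted in the same way. Of 9 glucocorticoid-responsive genes, 0 passed the adjusted p-value by vector in edgeR and 1 the unadjusted rule (Sgk1, higher), with a median of -0.12. By form of the name Fkbp5 was lower (-1.11, adjusted p = 0.0389, edgeR), with a median of -0.36 over the list. Of 9 fasting and feeding genes, 0 passed either rule by vector in edgeR (median -0.01), and Srebf1 was lower in the long-named livers (-1.58, adjusted p = 0.0203, edgeR). Of 8 heat and cold responsive genes, 4 were higher in the Cre livers by the unadjusted rule and 0 by the adjusted p-value in edgeR (median 1.03). The vector groups overlapped for all 4. For Hspa1a the GFP livers had 3.30, 2.81 and 5.23 CPM and the Cre livers 1.10, 30.1 and 49.9 CPM. For Hspa1b these were 27.6, 25.0 and 94.1 CPM and 20.4, 314 and 817 CPM. Cre liver 1 lay below every GFP liver for both genes, and within the GFP range for the others, Hspa8 and Rbm3. With 1 liver left out, the adjusted p by form of the name ranged from 0.0487 to 0.272 for Fkbp5, from 0.0249 to 0.164 for Srebf1 and from 0.0374 to 0.216 for Rbm3 (edgeR).

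The third comparison asked whether the difference by vector depended on the form of the library name. Across all genes 1 passed the adjusted p-value in edgeR (43 in DESeq2), none of the 9 did, and 1 of 9 had an unadjusted p under 0.05 against 5.78% of all genes tested. This was Bhlhe40, with an interaction of 0.77 on the log2 scale (SE 0.26, unadjusted p = 0.0226, adjusted p = 0.830, edgeR). Its Cre liver with a short name (141 CPM) lay below both short-named controls (183 and 181 CPM), and both long-named Cre livers (170 and 208 CPM) lay above the long-named control (143 CPM). The log2 difference by vector was -0.37 for the short and 0.40 for the long form. With 1 liver in 2 of the 4 combinations of vector and form, this fit left 2 residual degrees of freedom. For Dbp the log2 difference by vector was 0.51 in the short and 0.45 in the long form, for Ciart 0.84 and 0.45, and for Tef 0.13 and 0.12.

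The transcript files split 4 of the 9 genes into more than 1 RefSeq transcript. Tef had 2, NM_017376 (4267 bases) and NM_153484 (4174 bases). NM_017376 had 121, 98.1 and 104 CPM in the GFP livers and 65.2, 65.5 and 85.3 CPM in the Cre livers, so all Cre livers lay below all GFP livers. Among genes, 27.0% of those tested had vector groups that did not overlap, and no such share was computed over transcripts. NM_153484 had 98.6, 119 and 49.1 CPM and 174, 75.6 and 106 CPM, with groups that overlapped. The share of Tef counts given to NM_153484 was 44.8%, 54.8% and 32.1% in the GFP livers and 72.7%, 53.6% and 55.5% in the Cre livers. These shares overlapped between the vectors, since Cre liver 2 lay below GFP liver 2. No test was run on transcripts, and their expected counts are estimates that divide reads shared between transcripts.

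**Figure D4:**
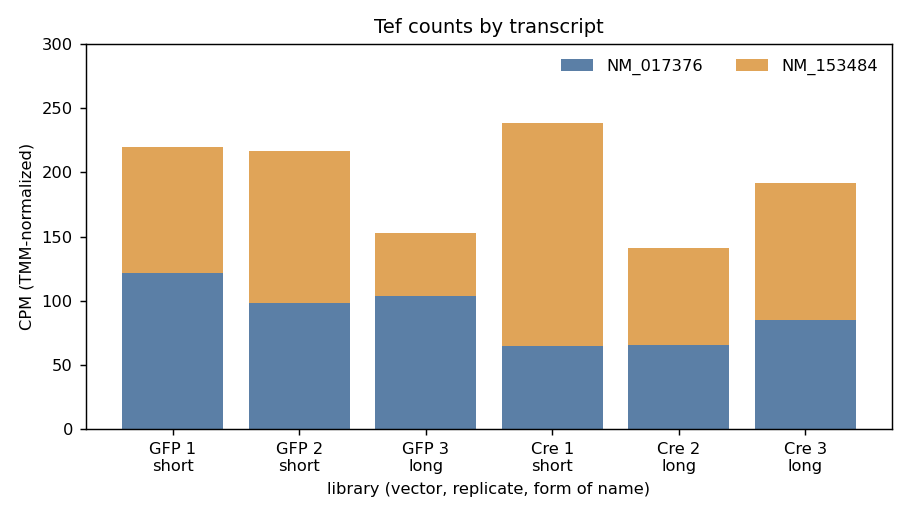
Tef CPM in each library, stacked by transcript (blue, NM_017376, and orange, NM_153484), with libraries along the horizontal axis by vector, replicate and form of name. The blue part is 98.1 to 121 CPM in the GFP livers and 65.2 to 85.3 CPM in the Cre livers, while the orange part ranges from 49.1 to 174 CPM over both.

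Usp2 counts came almost entirely from NM_198091, with 92.8% to 98.9% of the gene per library. Rora counts came mainly from NM_001289916, with 73.2% to 99.8%, and GFP liver 3 alone gave 25.0% to NM_013646. The 2 transcripts of Bhlhe41 took from 0 to 100% of its few counts in different libraries, so they were not resolved at this depth. Dbp, Hlf, Nfil3, Bhlhe40 and Ciart had 1 transcript each in the files. Ciart lies within the span of the long non-coding gene C920021L13Rik, which had at most 0.450 FPKM, and Bhlhe40 shares 306 bases with 0610040F04Rik, which had at most 0.350 FPKM.

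Across the 6 libraries the members most alike in log2 CPM were Dbp and Ciart, with Pearson r = 0.96, followed by Tef and Usp2 (0.92) and Rora and Ciart (0.91). After subtracting the mean of each vector group these were 0.95, 0.92 and 0.89. Hlf resembled Dbp only after that subtraction (0.76 against -0.01 before), since the 2 genes had opposite differences by vector. Nfil3, the repressor at D-boxes, had r = -0.46 with Dbp, 0.34 with Tef and 0.38 with Hlf before the subtraction, and -0.17, 0.39 and -0.51 after it. The libraries share the normalization, and 6 points describe these livers only. Cre liver 2 lay farthest of the 6 from its vector mean in log2 CPM for Dbp (-0.58), Ciart (-0.67), Tef (-0.40) and Hlf (-0.31). This was not so for Rora or Usp2, and correlations without this liver were not computed. Among 12365 genes with a mean of at least 1 CPM, 56 had r of at least 0.9 with Dbp. The 5 most alike outside the set were Zcchc7 (0.99), Nnmt, a nicotinamide methyltransferase (0.98), Magoh, a subunit of the exon junction complex (0.98), Gm10778 (0.97) and Sugt1 (0.97).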

How the data were processed

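Livers of 6 mice, 3 per vector as labelled, were also split by the form of the library name. For every transcript and library the authors deposited expected counts, with FPKM scaled by transcript length and mapped fragments, and a table of FPKM per gene. The submitters' processing notes name HISAT2, Bowtie2, RSEM and mm10, and the methods of the study name STAR, HTSeq and DESeq2, all without versions, so the aligner behind the files is unsure. Expected counts, which need not be whole, were added up within each gene and rounded. They were tested with edgeR 4.0.16 in R 4.3.3 (TMM, filterByExpr, quasi-likelihood), which kept 13431 genes, and p-values were adjusted by the Benjamini-Hochberg method over these. Each SE is the log2 difference divided by the root of the quasi-F statistic. The smallest chi-square per gene between libraries of a group was 24.9, so replicates differed beyond sampling noise. The labels number the samples of a group, and p-values measure the spread between these 6 mice only. CPM values also carry counting error.

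As alternatives, DESeq2 1.42.0, RLE or upper quartile scaling, no count filter or 10 counts in every library, limma 3.58.1 on log2 FPKM with a pseudocount of 1 or 0.1 for genes at 0.5 FPKM or more in 3 libraries (with 1 also unfiltered), a block on the replicate number, the name form as covariate or without the vector, a fold of 1.5 and leaving out each library were tried. The steps were tested on simulated data. All 9 members were named, with at most 4 genes of each list by smallest p (core clock genes without this limit), Mettl14, Rorb and the 5 genes most correlated with Dbp. The members and gene lists were chosen with earlier results of these data known. 1 gene that this rule names is not reported here. No sample was left out.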

Additional observations from a re-analysis of the deposited data

Results flagged for a closer look

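The difference of Bhlhe40 by vector ran in opposite directions in the short-named and the long-named livers, which is why it is listed. The interaction of vector and form of the library name was 0.77 on the log2 scale (unadjusted p = 0.0226, adjusted p = 0.830, edgeR), and it was the 1 member of 9 with an unadjusted p under 0.05. Every Cre liver moved away from the controls of its own form, down in the short form (1 liver) and up in the long form (2 livers). With RLE normalization and with DESeq2 the interaction lay between 0.79 and 0.80, with adjusted p-values of 0.652 to 0.831.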

How the results depend on the processing

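The count of members past the adjusted p-value by vector was 0 in all 16 alternatives. Past the unadjusted rule it was 2, and 1 at a fold of 1.5 (Nfil3), while limma on FPKM gave 3 (Ciart, Dbp and Hlf). Leaving out 1 library gave 1 to 4, with the 4 (Ciart, Dbp, Hlf and Nfil3) without Cre liver 2, and 1 without GFP livers 1, 2 or 3 or Cre liver 3. By form of the name the adjusted count was 0, but 1 without the filter on low counts and 2 with DESeq2. Of the 9 members, 6 kept their direction by vector, 6 by form and 8 in the interaction. Tef by vector (-0.05) turned to 0.12 with the form as a covariate, 0.0099 with upper quartile normalization and 0.11 in the limma fits on log2(FPKM + 1), with or without the filter, and on log2(FPKM + 0.1), and ranged from -0.24 to 0.13 leaving out 1 library. Usp2 by vector (-0.14) turned to 0.12 with the covariate and to 0.045 or, with log2(FPKM + 0.1), 0.05 in limma, and ranged from -0.39 to 0.13. Leaving out 1 library, Bhlhe40 ranged from -0.12 to 0.16 by vector and from -0.36 to 0.43 by form, Hlf by form from -0.28 to 0.17 and Bhlhe41 by form from -0.041 to 1.36. The interaction of Tef (-0.0068) turned to 0.022 with RLE and 0.017 with DESeq2. The FPKM scale moved the median of all genes by vector up by 0.15 (0.16 with a pseudocount of 0.1). The cause of these changes was not tested. The replicate block left 2 members past the unadjusted rule (Hlf and Nfil3) and 7 of all genes by the adjusted p-value, against 125 without it. Deviations of same-numbered livers correlated at 0.009, -0.263 and 0.209, so the numbers did not pair the livers. Over all genes the adjusted count by vector was 1157 with DESeq2, 372 without a filter, 214 with the covariate, 107 with RLE, 76 with at least 10 counts, 66 with upper quartile normalization, 22, 27 and 9 with limma (log2(FPKM + 1), log2(FPKM + 0.1), unfiltered), and 0 to 928 leaving out 1 library, with 0 without GFP liver 2 or Cre liver 2. By form it was 187, and 689 with DESeq2, 292 without a filter, 34 without the vector, 99, 148 and 0 with limma and 4 to 70 leaving out 1 library. At 47 to 195 counts per library, Bhlhe41 is the member that depth limits most.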
